A study of Mus musculus with 2 samples.

Results

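Mir219a-2 and Mir338, a pair of microRNA genes known from myelinating oligodendrocytes, were both abundant in the hippocampus of 14-day-old mice, and the genes on their opposite strands were close to absent. The set described here holds 5 of the 2202 microRNA genes in the deposited count tables: Mir219a-1, Mir219a-2, Mir219b, Mir338 and Mir3065. They were chosen by a rule on GENCODE M21 symbols that uses no values, although earlier results of these data were known. Small RNA (size range under 30, with no unit given) was sequenced from the hippocampus of female B6CASTF1/J mice, the first-generation cross of C57BL/6J and CAST/EiJ. The labels give 1 group with 2 biological replicates, each a pool labelled with 3 females, and 1 library per pool. The animal numbers of the pools differ, although both replicates carry the same donor record. The tissue label speaks of a layer of the hippocampus without naming it. There was no treatment, no altered allele and no control group, so the report gives levels and the difference between the 2 libraries, in which the pool and the library preparation cannot be told apart.

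MicroRNAs are short RNAs that pair with messenger RNAs, mainly through bases 2 to 8 (the seed), and lower their translation or stability. A hairpin precursor is cut into a 5p and a 3p arm, and either arm can be loaded into the silencing complex. miR-219 and miR-338 rise as oligodendrocyte precursors stop dividing and begin to make myelin. They repress transcripts that hold precursors back, among them the growth factor receptor Pdgfra and the transcription factors Sox6 and Hes5. Hippocampal myelin is laid down after birth, so an animal of this age holds oligodendrocytes at several stages. The tables hold microRNA genes, so the protein-coding markers of oligodendrocytes were not measured here, and the cell type rests on this background.

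The mature sequences are shown first because the counts have to be read against them: the 2 Mir219a genes make the same 5p product, and the opposite-strand genes make products that mirror those of their partners. All 5 hairpins matched the RefSeq table (GRCm38.p6), with 8 mature entries and 7 distinct sequences. It lists no 3p product for Mir219a-2 or for Mir3065. Their absence below does not mean that these arms are not made or not counted. Capitals mark the seed, and each sequence runs 5′ to 3′.
miR-219a-5p (from Mir219a-1 and from Mir219a-2): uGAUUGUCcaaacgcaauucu
miR-219a-1-3p (from Mir219a-1): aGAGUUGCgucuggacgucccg
miR-219b-5p (from Mir219b): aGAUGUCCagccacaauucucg
miR-219b-3p (from Mir219b): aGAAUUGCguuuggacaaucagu
miR-338-5p (from Mir338): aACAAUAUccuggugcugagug
miR-338-3p (from Mir338): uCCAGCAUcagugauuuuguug
miR-3065-5p (from Mir3065): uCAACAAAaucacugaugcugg
The 7 mature sequences had 7 different seeds, and none of these occurred in another of the 1679 mature entries of the table. miR-219a-5p and miR-219b-3p lie on opposite strands of the same bases, with 21 bases in common, so they are mirror images with unrelated seeds. The same holds for miR-338-3p and miR-3065-5p, which have 21 bases in common.

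The 2 Mir219a hairpins are shown whole, since they decide which reads can be told apart. Capitals mark the longest run they share.
Mir219a-1: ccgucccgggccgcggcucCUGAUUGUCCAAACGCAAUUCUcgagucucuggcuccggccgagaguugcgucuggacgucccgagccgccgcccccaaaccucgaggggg
Mir219a-2: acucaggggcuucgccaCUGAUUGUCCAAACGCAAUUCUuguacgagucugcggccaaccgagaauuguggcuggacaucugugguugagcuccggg
The run is 22 bases long and contains miR-219a-5p entirely; the next longest run in common is 7 bases. A read that lies within the run matches both loci. Multi-mapping reads have their own line in the tables and are not in the gene counts, so a copy of miR-219a-5p with no added bases is not expected in either gene's count if it was marked as multi-mapping. The counts of Mir219a-1 and Mir219a-2 are therefore uncertain as measures of miR-219a-5p. They come from reads that could be placed at 1 locus, and the tables do not separate the arms. Of the windows of 20 bases in each gene, 3 of 91 in Mir219a-1, 3 of 78 in Mir219a-2 and 3 of 46 in Mir219b were shared with a microRNA gene elsewhere. In Mir338 none of 79 windows and in Mir3065 none of 68 were shared with another microRNA gene, so these genes carry no such loss within the annotated set.

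All 5 genes belong to opposite-strand pairs in the annotation (GRCm38). Mir219a-2 (ENSMUSG00000065485.1) lies at chr2:29845631-29845727 on the minus strand, in no other gene, 628 bases from Urm1. Mir219b (ENSMUSG00000105010.1) occupies chr2:29845647-29845711 on the plus strand, wholly within the span of Mir219a-2. Mir219a-1 (ENSMUSG00000065555.1) is at chr17:34024983-34025092 on the minus strand. It overlaps an exon of the long noncoding RNA gene Gm26940 over 88 bases on the same strand, and Ring1 is 302 bases away. Its opposite-strand partner is Mir219c (ENSMUSG00000105964.1), which is not in the set and is named here as the gene facing a member. Mir338 (ENSMUSG00000065600.1) sits at chr11:120014765-120014862 on the minus strand, in an intron of Aatk and on the same strand as that gene, which encodes a kinase of the nervous system. Mir3065 (ENSMUSG00000105524.1), at chr11:120014767-120014853 on the plus strand, overlaps Mir338 over 87 bases and runs against Aatk.

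**Figure D1:**
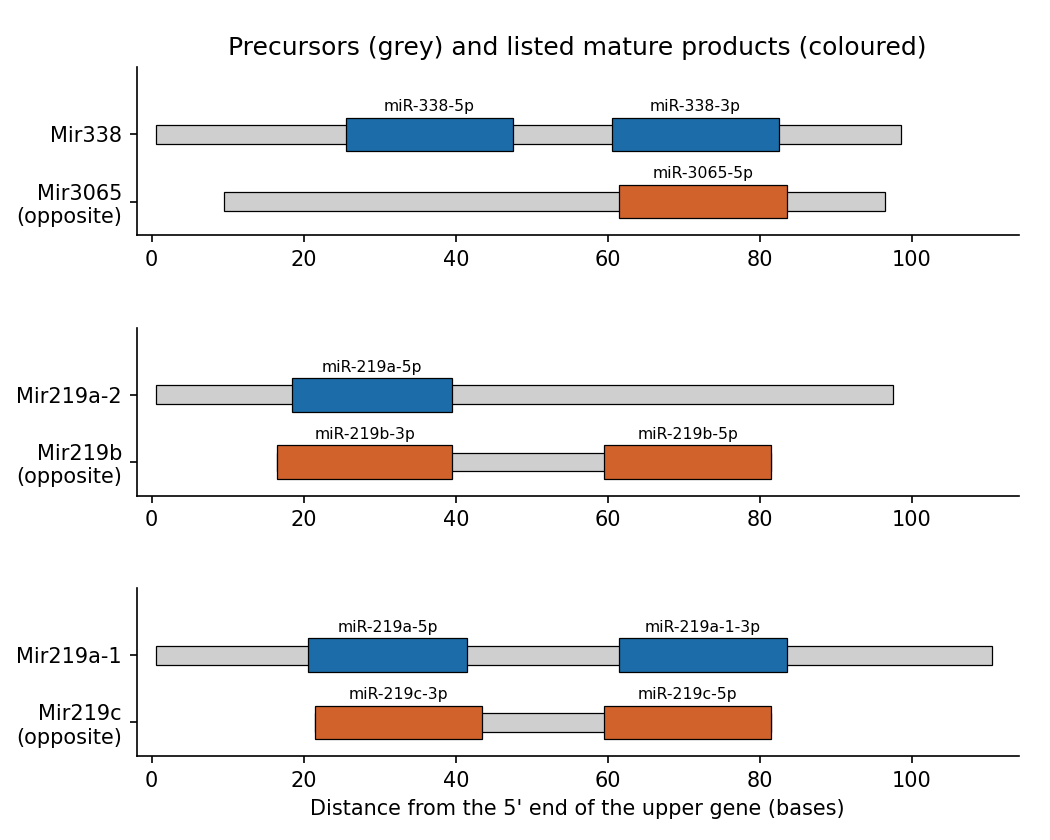
Position of the annotated mature products within the precursors of the 3 opposite-strand pairs. The x axis is the distance in bases from the 5′ end of the upper gene, grey bars are precursors, and coloured bars are the mature products listed in RefSeq; miR-219a-5p faces miR-219b-3p and miR-338-3p faces miR-3065-5p over 21 bases each.

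The libraries held 13195465 reads in replicate 1 and 7838361 in replicate 2. Sense counts assigned to microRNA genes came to 4764797 and 2852269, and multi-mapping reads made up 40.8% and 37.1% of all reads. A gene is called detected here where each library holds 10 or more of its counts, which 409 of the 2202 genes met. Levels are CPM, the sense counts scaled to the library's total over all gene rows, and 3 counts, used throughout as the limit set on a count of 0, are 0.630 CPM in replicate 1 and 1.05 in replicate 2. Intervals are exact Clopper-Pearson intervals at 95%. Counting error is all they cover, because there is 1 library per replicate. PCR copies were not marked with molecular identifiers and so are not separate molecules, which can make the intervals too narrow even for counting error.

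Mir219a-2 was the most abundant of the 5 genes. It had 5940 counts in replicate 1, a level of 1246.64 CPM with an interval of 1215.16 to 1278.74. In replicate 2 it had 7367 counts, a level of 2582.86 CPM (2524.28 to 2642.44). Replicate 2 was thus the higher library, with intervals that lie apart, and Mir219a-2 had more counts there although that library was the shallower. The mean was 1915 CPM ± 945 (SD, n = 2), which placed the gene 80th of 2202 by mean level, 99th in replicate 1 and 64th in replicate 2. The mean rests on both libraries: without replicate 2 it falls to 1247 CPM. In bulk tissue, more or fewer cells of a type and more or less RNA per cell cannot be told apart, which holds for every level given here.

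Mir219a-1, the other source of miR-219a-5p, was present at a small part of that level. It had 82 counts in replicate 1, a level of 17.2 CPM (13.7 to 21.4). In replicate 2 it had 72 counts, a level of 25.2 CPM (19.8 to 31.8). The intervals overlap, and the mean of 21.2 CPM ± 5.68 (SD, n = 2) ranked 291st. For each Mir219a-1 count there were 72.4 Mir219a-2 counts in replicate 1 (58.3 to 91.2) and 102.3 in replicate 2 (81.1 to 130.9). Reads that can be placed at 1 locus therefore came almost wholly from the chromosome 2 gene, 98.6% of the 2 genes' counts in replicate 1 and 99.0% in replicate 2. How the miR-219a-5p reads that match both loci divide between them cannot be read from these tables.

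Mir338, which makes miR-338-3p, was the second most abundant member. It had 3166 counts in replicate 1, a level of 664 CPM (642 to 688). In replicate 2 it had 1683 counts, a level of 590.1 CPM (562 to 619). The 2 libraries were close to each other in level, although their intervals lie apart. The mean was 627 CPM ± 52.6 (SD, n = 2), and the rank was 126th in replicate 1 and 127th in replicate 2. The SD was 8.39% of the mean for Mir338 and 49.3% of the mean for Mir219a-2.

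Mir3065 and Mir219b, the genes facing Mir338 and Mir219a-2, had 3 or fewer sense counts in each library. Mir3065 had 3 counts in replicate 1 and 2 in replicate 2, levels of 0.630 CPM (0.130 to 1.84) and 0.701 CPM (0.0849 to 2.53). Mir219b had 3 counts in replicate 1, a level of 0.630 CPM (0.130 to 1.84), and 0 in replicate 2, where the limit of 3 counts is 1.05 CPM. Neither was detected by the rule of 10 counts in both libraries, so 3 of the 5 genes were. Levels divided by precursor length kept the same order: per 100 bases, mean CPM was 1974 for Mir219a-2, 640.1 for Mir338, 19.3 for Mir219a-1, 0.765 for Mir3065 and 0.484 for Mir219b. The last 2 genes do not differ beyond their counting error. The gap between Mir219a-2 and Mir338 exceeded the counting error in both libraries, and the gaps from Mir338 to Mir219a-1 and from Mir219a-1 to Mir3065 did so too.

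**Figure D2:**
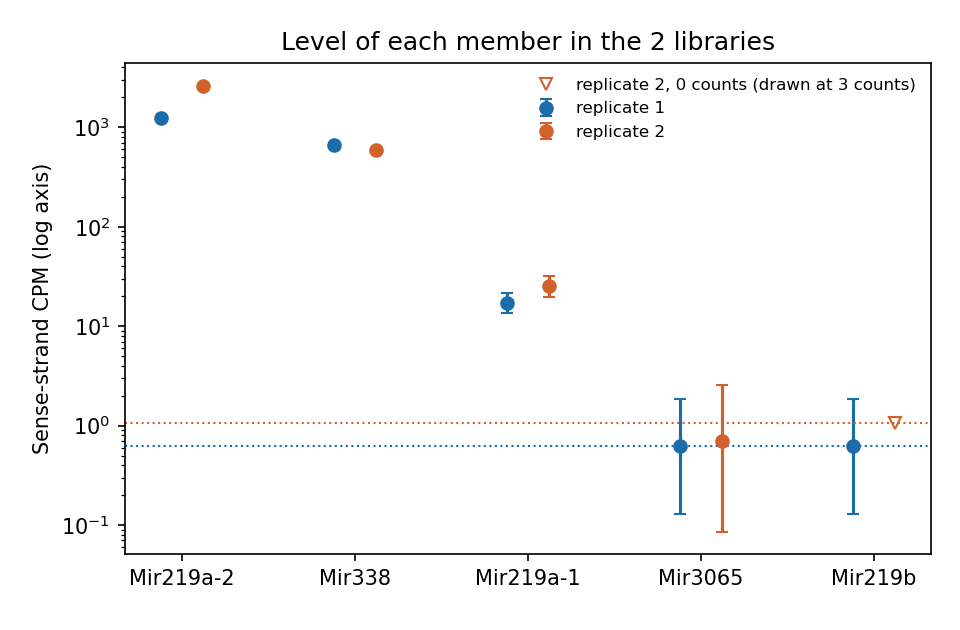
Sense-strand level of each gene in CPM on a log axis, 1 point per library with its exact 95% interval (smaller than the point for Mir219a-2 and Mir338). Dotted lines mark 3 counts in each library, and the open triangle stands for the 0 counts of Mir219b in replicate 2; Mir219a-2 is at 1246.64 and 2582.86 CPM while Mir3065 and Mir219b lie about the dotted lines.

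Together the 5 genes took 9194 counts in replicate 1 and 9124 in replicate 2, or 0.193% and 0.320% of all counts assigned to microRNA genes. Mir219a-2 made up 64.6% of them in replicate 1 and 80.7% in replicate 2. Mir219a-2 and Mir338 are known to act together in oligodendrocytes, and the balance of their counts was not the same in the 2 libraries. In replicate 1 there were 1.88 Mir219a-2 counts for each Mir338 count (1.80 to 1.96). In replicate 2 there were 4.38 (4.15 to 4.62). Mir219a-2 thus held 65.2% of the counts of these 2 genes in replicate 1 (64.2 to 66.2) and 81.4% in replicate 2 (80.6 to 82.2), a mean of 73.3% ± 11.4 (SD, n = 2). This ratio is taken within each library, so library size does not enter it, and it moved by 1.22 on the log2 scale between the libraries. The Mir219a-2 count is expected to lack miR-219a-5p reads that match both Mir219a loci, a loss that Mir338 does not share. The ratio is therefore one of placed counts and not of the mature microRNAs. Per base of precursor the ratio was 1.90 in replicate 1 and 4.42 in replicate 2. With 1 group of 2 libraries there was no test over samples.

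The strand of the reads set what was counted for every member. In the sense column, Mir338 held 99.91% of the 3169 reads of the pair with Mir3065 in replicate 1 (99.72 to 99.98) and 99.88% of 1685 in replicate 2 (99.57 to 99.99). Mir219a-2 held 99.95% of the 5943 reads of the pair with Mir219b in replicate 1 (99.85 to 99.99) and all 7367 in replicate 2. With the 0 of Mir219b set at the limit of 3 counts, Mir219a-2 was at least 2456-fold higher than Mir219b in replicate 2. Mir219a-1 held all 82 and all 72 reads of its pair with Mir219c, which by the same limit is at least 27.3-fold and 24-fold more than Mir219c.

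The opposite-strand column showed the same reads under the partner's name. There Mir3065 was listed at 3166 and 1683, exactly the sense counts of Mir338, and Mir338 was listed at 3 and 2. Mir219b was listed at 5940 and 7365, and Mir219a-2 at 3 and 0. Mir219c was listed at 79 and 70, and Mir219a-1 at 0 in both libraries. So all Mir338 reads touched the bases that Mir3065 covers, and all but 2 of the Mir219a-2 reads in replicate 2 touched those of Mir219b. Outside the partner's span lay 3 and 2 of the Mir219a-1 reads. A high count of Mir3065 or Mir219b taken from the wrong strand column would thus be the count of Mir338 or Mir219a-2.

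In the unstranded column the members nearly vanished. Mir338, Mir3065 and Mir219b were at 0 in both libraries, Mir219a-2 was at 0 and 2, and Mir219a-1 at 3 and 2. Reads that overlap genes on both strands have a line of their own there, labelled ambiguous, with 298200 reads in replicate 1 and 181401 in replicate 2. The reads of the Mir219a-2 pair were equal to 1.99% and 4.06% of these totals, and those of the Mir338 pair to 1.06% and 0.929%. Read alone, the unstranded column lists Mir338 at 0 and Mir219a-2 at 2 counts or fewer.

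**Figure D3:**
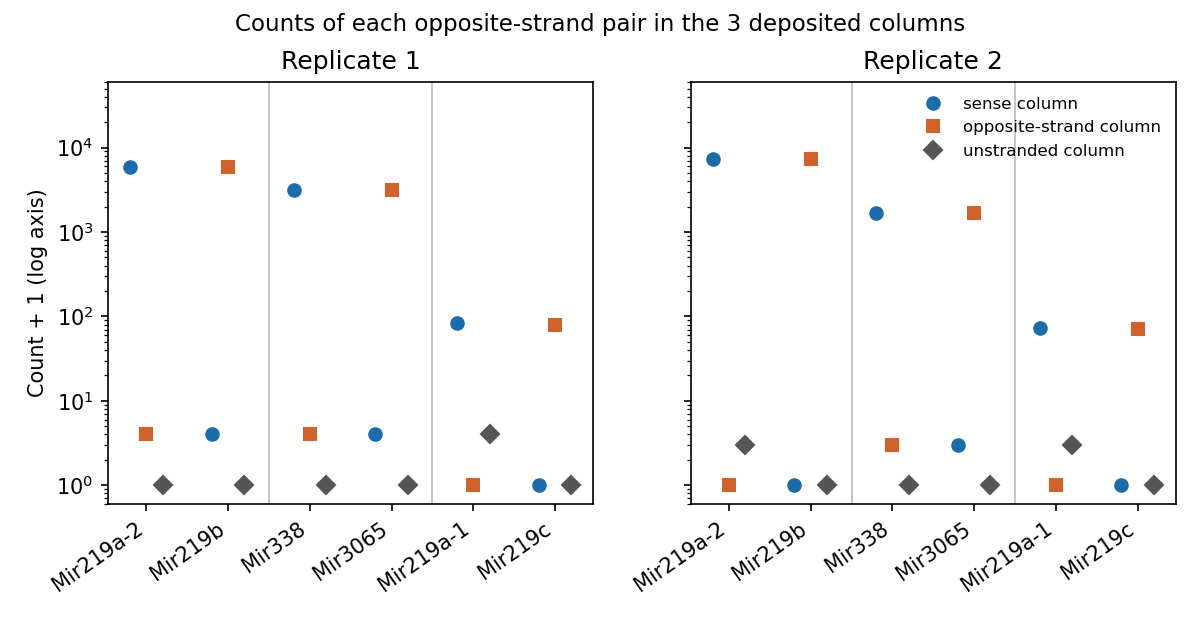
Counts plus 1 on a log axis for the 3 opposite-strand pairs in the sense, opposite-strand and unstranded columns, 1 panel per library. Within each pair the sense count of one gene is equal to the opposite-strand count of its partner or within 3 counts of it, as with 3166 for Mir338 and Mir3065 in replicate 1, and the unstranded counts lie at 0 to 3.

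The annotation has 32 such pairs of microRNA genes. Of these, 25 in replicate 1 and 22 in replicate 2 had at least 100 reads, and in each of them over 99% of the pair's reads were missing from the unstranded column. The minor gene held under 1% of the reads in 24 of the 25 pairs and in 21 of the 22, and was at 0 in 18 pairs in each library. The skew of the Mir338 and Mir219a-2 pairs is therefore shared by nearly all pairs of this kind. Mir3065 had 94.8 and 118.8 counts per 100000 counts of Mir338. Mir219b had 50.5 per 100000 counts of Mir219a-2 in replicate 1. In replicate 2 it had 0, where the limit of 3 counts is 40.7 per 100000. In genes without an opposite-strand partner, the opposite-strand column came to 3.29 and 4.12 per 100000 sense counts. The Mir3065 and Mir219b values rest on 3 counts or fewer, and whether they are transcripts of those genes was not tested.

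The 2 libraries were then compared gene by gene, for the 450 genes whose 2 counts summed to 20 or more. Each ratio divides replicate 2 by replicate 1 after TMM scaling of the library sizes, and each gene had a two-sided exact binomial test with Benjamini-Hochberg adjustment over the 450 genes, called at an adjusted p under 0.05. The test compares libraries, not conditions, and many genes pass it: 64.9% of all tested genes were called, 32.9% higher and 32% lower in replicate 2, and 22% were past 2-fold. The median log2 ratio of all tested genes was 0.01, with quartiles of −0.46 and 0.54. Of the 5 members 3 could be tested, and 2 of these 3 were called, both higher, 1 of them past 2-fold. With 3 genes tested, nothing is read from this share. The share of all genes depends on the filter: 37.9% of 788 genes were called with no filter and 87.5% of 273 at a summed count of 200 or more.

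Mir219a-2 was higher in replicate 2 by 1.17 on the log2 scale (1.12 to 1.22), which is 2.25-fold. It was the 33rd highest ratio of the 450, so 32 genes had a larger one. Mir219a-1 was higher by 0.67 on the log2 scale (0.20 to 1.15), with an adjusted p of 0.00712 in the exact binomial test. Both Mir219a genes were thus higher in replicate 2 relative to the scaled library sizes, although Mir219a-1 had fewer counts there. Mir338 had a log2 ratio of −0.05 (−0.14 to 0.04) and an adjusted p of 0.326 in the exact binomial test, so it was not called. With total counts in place of TMM, which shifts all ratios by −0.12, its ratio was −0.17 and it was called lower, with an adjusted p of 0.000159 in the same exact test. The direction and the call of Mir219a-2 held under the 4 alternative scalings run, and those of Mir219a-1 under the 3 that it could enter; its summed count is below 200, so it had no value with TMM over genes of at least 200.

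**Figure D4:**
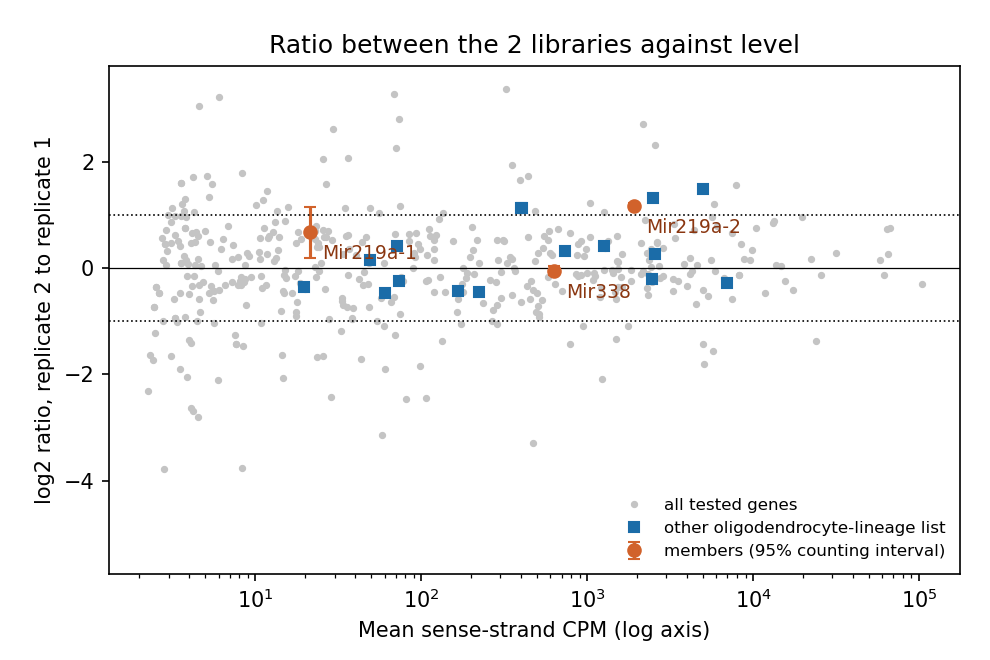
Log2 ratio of replicate 2 to replicate 1 against mean sense-strand CPM (log axis) for the 450 tested genes. Orange points are the 3 tested members with exact 95% counting intervals, blue squares are the other microRNAs known from the oligodendrocyte lineage, and dotted lines mark 2-fold; Mir219a-2 is at 1.17, Mir219a-1 at 0.67 and Mir338 at −0.05.

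Genes of similar level set the scale of these differences. Next above Mir219a-2 by mean CPM stood Mir1983 (2273 and 1949 CPM) and Mir1298 (3846 and 88.0 CPM), and next below it Mirlet7f-2 (2072 and 1613 CPM) and Mir874 (1917 and 1728 CPM). The ranges over the 2 libraries of all 4 overlapped that of Mir219a-2, so its place among them does not hold beyond the spread. Around Mir338 stood Mir222 and Mir146 above and Mir412 and Mir455 below, and all 4 ranges overlapped that of Mir338. By distance in log2(CPM + 1) over the 2 libraries, over 272 candidates whose counts averaged 100 or more, the genes nearest to Mir219a-2 were Mir423 (1646 and 2835 CPM), Mir138-2 (1510 and 3481 CPM) and Mir667 (1261 and 1765 CPM). Their distances were 0.42, 0.51 and 0.55. Nearest to Mir338 were Mir146 (683 and 588 CPM, distance 0.04), Mir700 (639.9 and 526 CPM, distance 0.17) and Mir222 (729.7 and 547 CPM, distance 0.17). Likeness over 2 libraries describes level more than pattern.

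A list of 19 other microRNA genes known from the oligodendrocyte lineage was followed beside the members. Of these, 16 could be tested: 8 were higher in replicate 2, 5 were lower and 3 were not called, and 4 were past 2-fold. In shares, 81.25% were called, 50% higher, and 25% were past 2-fold. Over all tested genes these shares were 64.9%, 32.9% and 22%. Whether the list differs from all genes was not tested. The median log2 ratio was 0.22, against 0.01 for all tested genes. Their summed level was 20453 CPM in replicate 1 and 25287 in replicate 2. Within that sum Mir138-1 went from 2760 to 7155 CPM and Mir138-2 from 1510 to 3481, while Mir23a went from 7918 to 5972. Together the Mir138 genes rose by more than the whole list did. The list did not move as a block. A run of 20 or more bases in common with a different microRNA gene occurs in 11 of its 19 genes, against 1087 of all 2202. A read within such a run matches more than 1 locus, so the counts of those 11 may lack reads. Both Mir138 genes and Mir23a are among them. Whether the run holds a mature product was examined for the Mir219a genes only.

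Both miR-138 genes, whose product acts with miR-219 and miR-338 in early oligodendrocyte differentiation, were higher in replicate 2. Mir138-1 had 2760 and 7155 CPM, with a log2 ratio of 1.50 (1.46 to 1.53). Mir138-2 had 1510 and 3481 CPM, with a log2 ratio of 1.33 (1.28 to 1.37). Their ratios were as high as that of Mir219a-2 or higher. The other 2 genes past 2-fold were Mir212 (266 and 535 CPM, log2 ratio 1.13) and Mir7-2 (270.3 and 543 CPM, log2 ratio 1.13); miR-7 is known from the production of oligodendrocyte precursors. Mir7-1 was higher with a log2 ratio of 0.41, while Mir7b was lower with −0.20.

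The cluster of Mir17, known from precursor proliferation, was split. Mir17 (log2 ratio 0.27), Mir20a (0.32) and Mir92-1 (0.41) were higher, Mir18 was lower (−0.44), and Mir19a and Mir19b-1, with 4 counts or fewer in each library, were not tested. Mir23a, whose product favours myelin gene expression, had the highest mean level of the list, with 7918 CPM in replicate 1 and 5972 in replicate 2, where Mir138-1 stood above it. Mir23a was lower in replicate 2 with a log2 ratio of −0.28 (−0.31 to −0.26), and its neighbour Mir27a was lower with −0.46. Mir145a was lower with −0.46. Mir32, Mir9-1 and Mir9-3 had log2 ratios of 0.16, −0.35 and −0.24 and were not called, although Mir9-3 was called lower with total counts. Mir9-2, with 9 and 4 counts, was not tested.

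MicroRNAs of other cell types also differed between the libraries. The counts below stand beside 64.9% of all tested genes called, 32.9% higher and 32% lower. All 4 genes of the choroid plexus and ciliated epithelium list were lower in the second library. Their median log2 ratio was −1.76, with a summed level of 3948 CPM in replicate 1 and 1186 in replicate 2. Mir204, abundant in choroid plexus, was at 2027 CPM in replicate 1 and 439 in replicate 2. Of the 5 tested neuron genes (of 7), 2 were higher, Mir132 and Mir124a-1, and 3 were lower, Mir128-1, Mir128-2 and Mir137. Mir124a-1 had only 10 and 18 counts. The summed level of the tested and untested neuron genes was 21078 and 15228 CPM. The 3 genes of miR-124, the defining neuronal microRNA, had 18 counts or fewer in each library, and each has 20 or more bases in common with a different gene. Such a run occurs in 5 of the 7 neuron, 3 of the 4 astrocyte-associated and 1 of the 5 microglia and immune genes. Over all microRNA genes it occurs in 1087 of 2202. Reads within such a run match more than 1 locus, so the counts of these genes may lack reads. Whether the runs hold mature products was not examined for them. All 4 astrocyte-associated genes, the Mir29 family, were higher, with a median of 0.66 and sums of 1691 and 1828 CPM; Mir29b-1 was not called with DESeq2 size factors, and neither Mir29a nor Mir29b-1 with total counts. Of the 5 microglia and immune genes none was higher and 3 were lower (1819 and 1519 CPM); with total counts Mir223 and Mir142 were called lower too, so all 5 were. Of the 3 vessel genes 1 was higher and 2 lower (summed 15962 and 20349 CPM). The higher one was Mir126a (9966 and 16865 CPM), and the lower ones were Mir143 (5729 and 3305 CPM) and Mir145a, which is also in the oligodendrocyte-lineage list. Of the 3 red blood cell genes 1 was higher, Mir451a (217 and 663 CPM). The other 2, Mir144 (47.2 and 37.5 CPM) and Mir486 (25.4 and 20.7 CPM), were not called. The sums of 290.0 and 721.5 CPM were mostly Mir451a. No gene of these lists was at 0 in both libraries. The part of tissue makeup in the Mir219a-2 ratio was not tested.

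**Figure D5:**
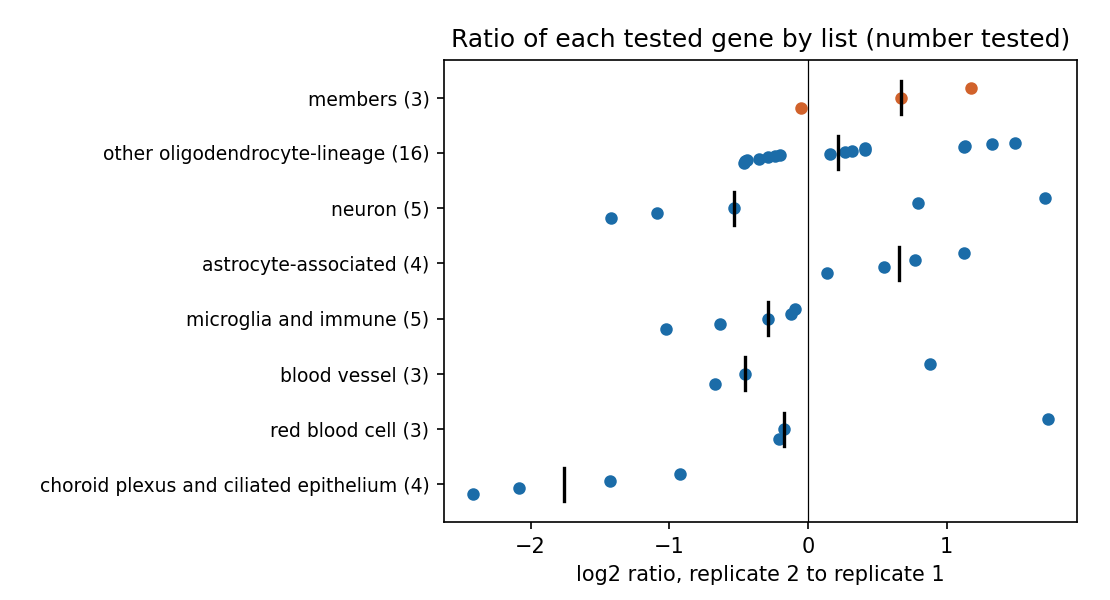
Log2 ratio of replicate 2 to replicate 1 for each tested gene, by list, with the number tested in brackets and the median as a black bar. The members spread from −0.05 to 1.17, the other oligodendrocyte-lineage genes from −0.46 to 1.50, and the choroid plexus list has the lowest median, −1.76.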

How the data were processed

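Each library has 1 deposited table of unnormalized read counts for microRNA genes, made on mm10 (GRCm38) with GENCODE M21 per the text deposited with it. Which aligner and counter made it is not given in the sources used here. Its 3 headerless value columns were read as unstranded and 1 per strand, and of the strand columns the one with more counts was used as sense. Lines that name no gene (reads unmapped, placed at several loci, outside any gene or ambiguous) entered neither library sizes nor tests, and 36.1% and 36.4% of reads were assigned to genes.

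TMM factors came from edgeR 4.0.16 (R 4.3.3) on the 450 genes whose counts summed to 20 or more, and DESeq2 1.42.0 gave alternative size factors. Other steps used Python 3.11.15 and scipy 1.17.1. The binomial step was tested on simulated counts that held known changes and counting error only. That test therefore does not cover spread between pools. Genes named beside the members were the 2 neighbours on each side by mean level and the 3 nearest genes, for members whose counts averaged 100 or more, and also the oligodendrocyte-lineage list and any gene facing a member. Marker genes with values were picked from their lists after their values were seen. 4 list names were matched through RefSeq synonyms. The members and lists were chosen with earlier results of these data known. Alternatives with the Mir219a-2 to Mir338 share and with TMM over other gene sets were added after seeing the data.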

Additional observations from a re-analysis of the deposited data

How the results depend on the processing

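Levels depended on the strand column. In the unstranded column the mean was 0.710 CPM for Mir219a-1, 0.374 for Mir219a-2, 0 for Mir338 and 0 for Mir3065, because reads over genes on both strands are set apart there, and no member kept enough counts for a ratio. With all reads as the denominator the means were 7.70, 695, 227 and 0.241 CPM in the same order, by construction. Leaving out 1 library gave 1247 to 2583 CPM for Mir219a-2, 590.1 to 664 for Mir338, 17.2 to 25.2 for Mir219a-1, 0.630 to 0.701 for Mir3065 and 0 to 0.630 for Mir219b. It gave 65.2% to 81.4% for the share of Mir219a-2 among its counts and those of Mir338. The log2 ratio of Mir338 was −0.17 with total counts and −0.12 with TMM over all genes with at least 1 count, both called lower; the cause was not tested. The ratio ran from 1.05 to 1.17 for Mir219a-2 and from 0.55 to 0.67 for Mir219a-1. Past 2-fold were 311 of 788 genes with no filter and 52 of 273 at a summed count of at least 200, against 99 of 450. With total counts, Mir9-3, Mir223 and Mir142 were also called lower and Mir29a and Mir29b-1 were not called, and all 4 choroid plexus genes were past 2-fold, against 3; with DESeq2 size factors Mir29b-1 was not called. The other alternatives run for the members' levels, ratios and pair shares changed no call. No paired analysis was possible because there is 1 group. Depth limits Mir3065 and Mir219b, where 3 counts or fewer allow no ratio.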
